A study of Homo sapiens with 8 samples.

Results

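COL6A1, COL6A2, PCNT and DIP2A lie in 1 window of 1 Mb near the end of the long arm of chromosome 21, with other genes between COL6A2 and PCNT. RNA from their strand held more TIA1 peaks than any other window of the genome in the deposited list, on a grid of whole 1 Mb windows. The members were chosen by that count: peaks of the TIA1 and RBFOX2 lists on the plus strand that overlap 4 spans in hg19, given in whole kb as 47401 to 47425 for COL6A1, 47518 to 47553 for COL6A2, 47744 to 47866 for PCNT and 47878 to 47990 for DIP2A. This rule took in 47 of 3215 TIA1 peaks and 12 of 4227 RBFOX2 peaks. Counts, folds and −log10 p of TIA1 in these genes are therefore descriptions of what chose them, and no test was made of them. The spans are 24, 35, 122 and 112 kb long, close to the 23.3, 34.8, 121.6 and 111.0 kb that GENCODE gives for these genes in another build, where all 4 also lie on the plus strand and in this order.

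The peaks come from eCLIP, which fixes proteins to the RNA they touch with ultraviolet light, pulls down 1 protein with an antibody and sequences the RNA that comes with it. The cells were HEK293T, an established line from human embryonic kidney with the SV40 large T antigen. For each of TIA1 and RBFOX2 there were 2 immunoprecipitated libraries (clip), made with an antibody to the HA tag (the labels do not say how the tag was introduced, and their extraction text speaks of TIA1 beads for every library), and 2 input libraries without immunoprecipitation. All 8 were from cells crosslinked at 600 mJ, with no other treatment named. Each protein has 1 peak list joined over both replicates, so a peak has a fold of clip over input and a −log10 p but no value per library. Neither a spread between replicates nor the depth behind a peak can be given, and the lists hold no expression level.

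COL6A1 and COL6A2 encode the α1 and α2 chains of collagen VI, which join with an α3 chain into a triple helix and then into beaded microfibrils around cells; variants in them cause Bethlem and Ullrich muscle disease. PCNT encodes pericentrin, a coiled-coil scaffold that anchors the γ-tubulin complexes from which the centrosome grows microtubules. DIP2A encodes a protein of the disco-interacting family with domains like those of acyl-CoA synthetases. TIA1 binds U-rich RNA, often beside 5′ splice sites and in 3′ untranslated regions, and takes part in splicing, translational silencing and stress granules. RBFOX2 regulates splicing through the element GCAUG, mostly in introns beside exons.

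The letters known to attract these proteins were looked up in the longest protein-coding transcript of each gene (GENCODE 29, sense strand, T for U), to show how much of them the spliced RNAs carry. Introns were not part of this search, and no printed stretch is matched to a peak, since the genome of the files' build was not used here. The longest run of T in each transcript, or the first of them where runs tie as in DIP2A, is in capitals, with flanks of up to 10 bases.
COL6A1-201, bases 3309 to 3316, 3′ untranslated: attcgctagaTTTTTTTTaaggaaaagc
COL6A2-201, bases 1038 to 1040, coding: gaagggtgaaTTTggagccgacg
PCNT-201, bases 9737 to 9742, coding: taagattacgTTTTTTggttaagaaa
DIP2A-201, bases 5295 to 5299, 3′ untranslated: tagttcctgaTTTTTaaaattcagt

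The first GCATG of each transcript that has one is shown in the same way. COL6A2-201 has none.
COL6A1-201, bases 428 to 432, coding: ggcctcacgcGCATGcctggcggcc
PCNT-201, bases 494 to 498, coding: caccagaacaGCATGggatgttcac
DIP2A-201, bases 997 to 1001, coding: tgcagcgggaGCATGctggaaacag

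Spliced COL6A2 RNA was among the poorest in T of all genes. T made up 13.7% of its 3461 bases, a lower share than in all but 0.518% of 19673 protein-coding genes, whose median was 24.7%. No run TTTTT occurs in it (0 in 3461 bases), whereas 83.2% of genes have at least 1 in their longest transcript. COL6A1 RNA held 16.5% T over 4238 bases, with 4.49% of genes lower, but in TTTTT it was close to the median gene, with 1.89 overlapping matches per kb (44.8% of genes lower) against a median of 2.31. All 8 of its matches lie in the 3′ untranslated region. T was rarer in the coding part of COL6A1 (14.0%) than in its 3′ untranslated region (23.9%). PCNT had 17.3% T and 5 matches to TTTTT in 10560 bases, 4 of them coding, which is 0.473 per kb (21.5% of genes lower). DIP2A had 23.0% T, the nearest of the 4 to the median share, and 8 matches in 7023 bases, or 1.139 per kb (33.6% of genes lower). By overlapping TTTTT matches per kb COL6A1 was thus above PCNT and DIP2A, and COL6A2 was the gene without any. A run longer than 5 bases gives more than 1 such match, as the 8-base run of COL6A1 does. No run of DIP2A is longer than 5 bases, so separate runs could rank these genes otherwise. GCATG was found 1 time in COL6A1 and 0 times in COL6A2, against 12 times in PCNT and 10 times in DIP2A, and 85.7% of genes have it. Per kb that is 0.236 in COL6A1, 1.136 in PCNT and 1.42 in DIP2A, where the median gene has 0.841. These counts describe the letters of spliced RNA only: exons of the chosen transcript make up 18.2% of the COL6A1 gene, 9.96% of COL6A2, 8.68% of PCNT and 6.33% of DIP2A.

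**Figure D1:**
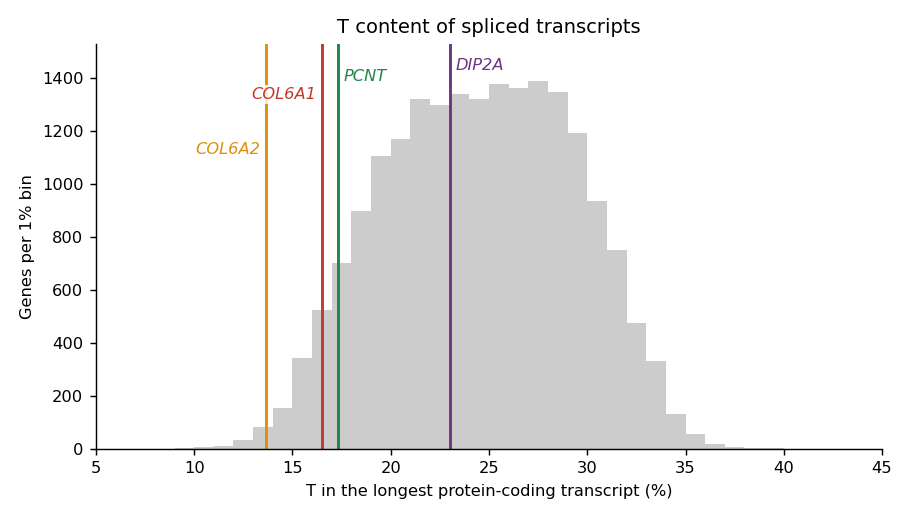
Share of T (in %) in the longest protein-coding transcript of each of 19673 genes, as a histogram of genes per 1% bin, with the 4 genes as vertical lines. COL6A2 (13.7%), COL6A1 (16.5%) and PCNT (17.3%) lie in the lower tail and DIP2A (23.0%) near the median of 24.7%.

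TIA1 peaks were crowded in the collagen genes and sparse in the larger genes PCNT and DIP2A. COL6A1 held 27 of the 47 TIA1 peaks, COL6A2 13, PCNT 5 and DIP2A 2. Per 10 kb of span that is 11.2 in COL6A1, 3.71 in COL6A2, 0.410 in PCNT and 0.179 in DIP2A. With peaks at most 50 bases apart joined into 1 site, the same order held at 5, 2.57, 0.328 and 0.0893 sites per 10 kb, with a smaller lead of COL6A1. Thus the collagen genes hold 57.4% and 27.7% of the members' TIA1 peaks on 8.19% and 11.9% of the combined span. RBFOX2 peaks were spread otherwise, with 6 in COL6A1, 1 in COL6A2, 1 in PCNT and 4 in DIP2A. TIA1 peaks outnumbered RBFOX2 peaks by 4.50 to 1 in COL6A1, 13 to 1 in COL6A2 and 5 to 1 in PCNT, and in DIP2A the ratio was 0.5. Over the whole lists it was 0.761. Genes chosen by their TIA1 count lean to a higher ratio, and those of COL6A2 and PCNT rest on 1 RBFOX2 peak each. A count of peaks also depends on how much of an RNA the cells hold and on depth, which the lists do not give, so its part in these differences was not tested.

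**Figure D2:**
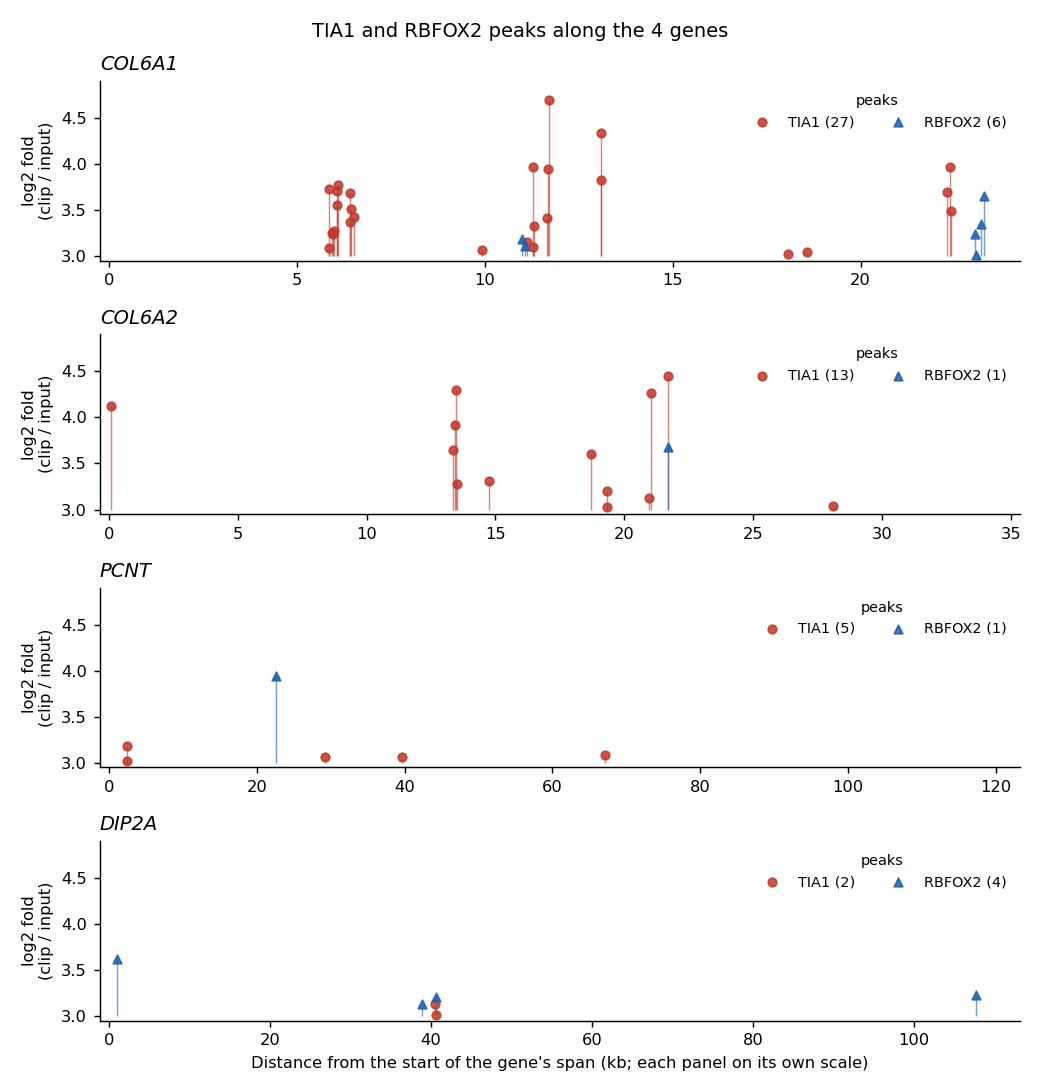
Each peak's log2 fold of clip over input (vertical axis, from the lists' lower limit of 3) against its distance in kb from the start of the gene's span, with TIA1 as red circles and RBFOX2 as blue triangles. COL6A1 holds groups of TIA1 peaks near 6, 11 to 13 and 22 kb, and its last RBFOX2 peaks lie beyond the last TIA1 peak.

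In COL6A1, which runs through 35 exons in the GENCODE transcript, TIA1 peaks fell into groups. The first 12 lay within 1 kb, from chr21:47406859-47406863 to chr21:47407524-47407536, with log2 folds from 3.09 to 3.77. They include the 5-peak site chr21:47406859-47406986 and the 3-peak sites chr21:47407069-47407089 and chr21:47407413-47407433. The stretch from 6 to 12 kb into the span held 15 of the 27. A tight group there, 3 peaks at chr21:47412662-47412724, carried both the highest −log10 p and the highest fold of the locus. Its 48-base middle peak, chr21:47412673-47412720, had a −log10 p of 19.2 and a log2 fold of 3.95, and the 4 bases that follow, chr21:47412721-47412724, had a log2 fold of 4.69 (25.8-fold) with a −log10 p of 12.0. By fold that 4-base peak ranks 38 among the 3215 TIA1 peaks.

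Other COL6A1 peaks with high values were chr21:47412285-47412302, with a log2 fold of 3.97 and a −log10 p of 14.4, and chr21:47412303-47412312 beside it, with 3.33 and 13.4; with the peak before them they form the site chr21:47412277-47412312. A 2-base peak at chr21:47414081-47414082 had the next highest fold of the gene, 4.34, with a −log10 p of 8.06. Near the end of the span, 3 abutting peaks filled chr21:47423310-47423436 with log2 folds of 3.70, 3.97 and 3.49. The lowest folds of the gene were those at chr21:47419069-47419116 (3.03) and chr21:47419571-47419590 (3.05), each a site of 1 peak.

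RBFOX2 peaks of COL6A1 made up 2 clusters. A pair of short peaks, chr21:47411981-47411986 and chr21:47412078-47412103, had log2 folds of 3.18 and 3.11 and −log10 p of 3.47 and 4.77. The other 4, between chr21:47424044-47424069 and chr21:47424283-47424353, had log2 folds of 3.24, 3.02, 3.35 and 3.65, with a highest −log10 p of 9.54 at chr21:47424203-47424282. None of the 6 overlapped a TIA1 peak (0 of 6), where 21.7% of the RBFOX2 list does. All 6 lay within 1 kb of one, against 1535 of 4227 over the list. They make up only 2 clusters, and choosing a gene by its TIA1 count favours such nearness. The closest were the RBFOX2 peak that ends at 47412103 and the 4-base TIA1 peak at chr21:47412128-47412131, with 24 bases between them. The 4 peaks of the last cluster lay 607 to 846 bases beyond the last TIA1 peak of the gene.

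COL6A2 held 13 TIA1 peaks at 9 sites, with peaks joined where at most 50 bases separate them. The first, chr21:47518075-47518086, began 75 bases into the span and had a log2 fold of 4.12, and 13.3 kb without a peak followed. The sites of the middle then ran from 13.4 to 21.7 kb. The highest −log10 p of the gene, 9.64, was at chr21:47531457-47531493 with a log2 fold of 4.30 (19.7-fold), and abutting peaks at 3.92 and 3.28 complete the 3-peak site chr21:47531446-47531505. The highest fold was at chr21:47539703-47539748, a log2 of 4.44 (21.8-fold) with a −log10 p of 7.92. A 5-base peak at chr21:47539029-47539033 had 4.27, and the 62-base peak it abuts had 3.12. The last peak, chr21:47546113-47546139, had 3.03.

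Peaks of COL6A2 thus reached high folds with modest −log10 p. Of its 13 TIA1 peaks 4 reached a log2 fold of 4, against 2 of 27 in COL6A1, 0 of 5 in PCNT and 0 of 2 in DIP2A; over the TIA1 list 9.21% do. None of the 13 reached a −log10 p of 10, against 8 of 27 in COL6A1, 4 of 5 in PCNT and 1 of 2 in DIP2A, where the list's share is 33.3%. A −log10 p of 5 was reached by 41 of the 47 peaks and 71.4% of the list.

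PCNT showed the reverse. Its 5 TIA1 peaks had the log2 folds 3.18, 3.02, 3.06, 3.06 and 3.09 in order along the gene, all close to the list's lower limit of 3 and below its median of 3.36, whereas 4 of their 5 −log10 p values lay above the list's median of 7.36. The highest, 15.1, was at chr21:47746490-47746500, which abuts chr21:47746474-47746489 at 13.8. The others were chr21:47773237-47773240 with 6.91, chr21:47783677-47783718 with 12.6 and chr21:47811079-47811080 with 12.1. The last of these is 2 bases wide. All lay in the first 67.1 kb of the 122 kb span, with none beyond 91.5 kb (0 of 5). The only RBFOX2 peak of PCNT, chr21:47766657-47766671, had a log2 fold of 3.94 and a −log10 p of 4.95, the highest fold of the 12 RBFOX2 members, and no TIA1 peak lay within 1 kb of it.

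DIP2A was the gene with more RBFOX2 than TIA1 peaks. Its 2 TIA1 peaks abut each other at chr21:47918498-47918589 and chr21:47918590-47918742, with log2 folds of 3.14 and 3.02 and −log10 p of 10.1 and 7.60. At 92 and 153 bases they were the widest TIA1 peaks of the 4 genes. The RBFOX2 peak with the highest −log10 p of the locus, 12.0, was chr21:47878964-47879129, which starts 0.964 kb into the span and had a log2 fold of 3.62. The other 3 had lower log2 folds. They were chr21:47916901-47916969 with 3.13, chr21:47918640-47918745 with 3.21 and chr21:47985721-47985796 with 3.23.

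**Figure D3:**
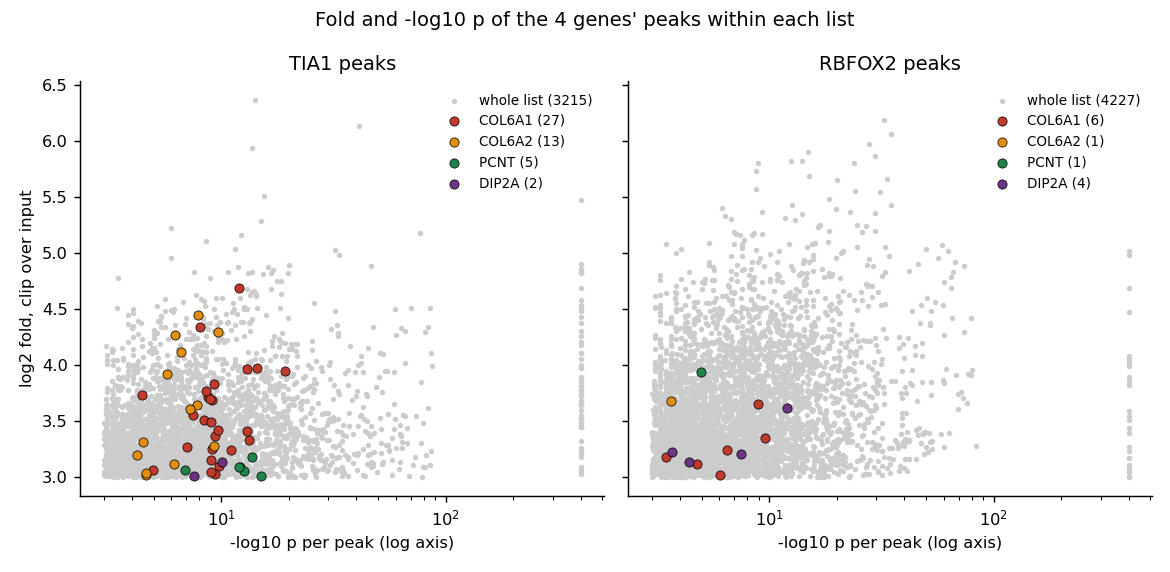
Log2 fold of clip over input (vertical axis) against −log10 p (horizontal log axis) for every peak of each list in grey, with the members coloured by gene. COL6A2 peaks reach log2 folds above 4 at −log10 p under 10, PCNT peaks lie near the lower limit of fold, and no member is near the −log10 p of 400 where both lists end.

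Across the 4 genes the folds of TIA1 were ordinary for the list. Their median log2 fold was 3.37 (interquartile range 3.11 to 3.75), and the whole list had 3.36 (3.16 to 3.63); 24 of the 47 lay above the list's median. The median −log10 p was 9.01 against 7.36, with 34 of 47 above the list's median. For the 12 RBFOX2 peaks the median log2 fold was 3.23, and 3.48 for that list, and 4 of 12 lay above it. None reached a log2 fold of 4 (0 of 12), where 19.3% of RBFOX2 peaks do.

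Most TIA1 peaks of the collagen genes and PCNT were under 20 bases wide. The median TIA1 peak was 13 bases wide in COL6A1, 12 in COL6A2 and 11 in PCNT, and 61 over the whole list. Of the 47 peaks 27 were under 20 bases, against 18.8% of the list. In COL6A1 there were 16 such peaks of 27, in COL6A2 7 of 13, in PCNT 4 of 5 and in DIP2A 0 of 2. The narrow peaks of the 4 genes had a median log2 fold of 3.42 and the wider 20 had 3.19, and over the whole list narrow peaks had 3.34 and wider ones 3.36. Many peaks were parts of an unbroken run: 19 of the 47 began at the base after another peak, against 20.6% of the list, and 14 of these were in COL6A1. Another TIA1 peak lay within 1 kb for 40 of 47, against 53.7% of the list. A choice of genes by their TIA1 count favours both of these shares. Whether it also favours narrow peaks was not tested. Joined within 50 bases, the 47 peaks made 26 sites, 12 in COL6A1, 9 in COL6A2, 4 in PCNT and 1 in DIP2A. The peaks covered 521 bases, or 2.17% of the span, in COL6A1, 290 bases (0.829%) in COL6A2, 75 bases (0.0615%) in PCNT and 245 bases (0.219%) in DIP2A. By bases covered, the 2 DIP2A peaks thus came close to the 13 of COL6A2. Of the RBFOX2 peaks 2 of 12 abutted another, against 26.8% of that list, and 6 of 12 had another within 1 kb, against 66.5%.

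**Figure D4:**
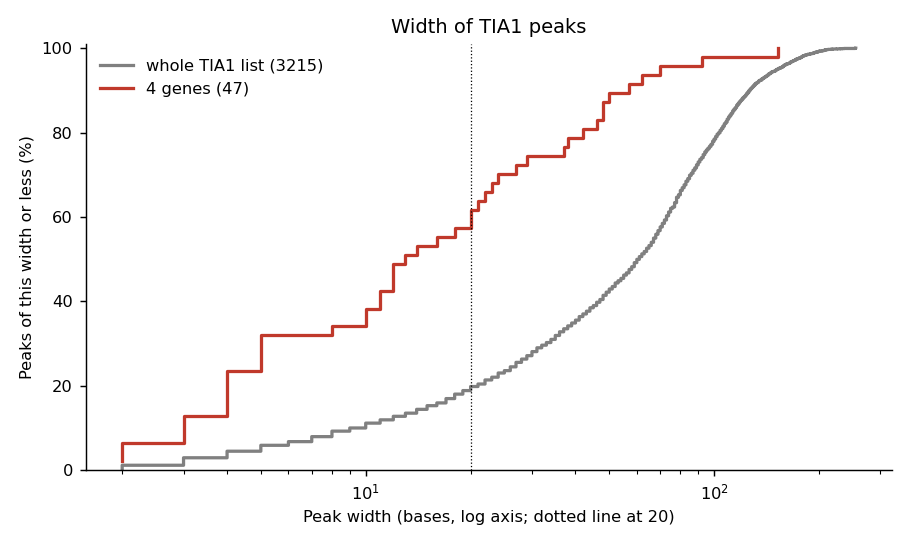
Cumulative share of TIA1 peaks (in %) by width in bases on a log axis, for the 47 peaks of the 4 genes (red) and the whole list of 3215 (grey), with a dotted line at 20 bases. The median is 13 bases in the 4 genes and 61 in the list.

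The proteins shared 2 positions in these genes. That is a low share of the TIA1 peaks, whose count chose the genes, and a share nearer the list's for the 12 RBFOX2 peaks. An RBFOX2 peak shared at least 1 base with 2 of the 47 TIA1 peaks, or 4.26% (95% Clopper-Pearson interval 0.520 to 14.5%), where 24.0% of the list does. With peaks joined within 50 bases it was 2 of 26 sites, or 7.69%, against 23.8% of the list's sites. From the other side, 2 of 12 RBFOX2 peaks met a TIA1 peak (16.7%, interval 2.09 to 48.4%), against 21.7% of that list. These intervals cover counting only and take neighbouring peaks as independent, which they are not, so the shares are a description of 1 locus. In COL6A2 the shared position was chr21:47539703-47539757, where the peaks have 37 of 46 bases in common. The log2 fold there was 4.44 for TIA1 and 3.68 for RBFOX2, the highest of 13 TIA1 peaks and the only RBFOX2 peak of the gene. In DIP2A the peaks shared 103 bases within chr21:47918590-47918745, with log2 folds of 3.02 for TIA1 and 3.21 for RBFOX2. With an RBFOX2 peak within 1 kb counted as well, the members' share was 15 of 47, or 31.9%, and the list's 35.2%; 10 of the 15 are in COL6A1.

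No plus-strand peak of the window lay outside the 4 genes, in either list. The nearest TIA1 peak outside them on this strand, chr21:46825075-46825148 with a log2 fold of 4.28, was 575.9 kb before COL6A1, and none followed DIP2A. Between the collagen genes and PCNT the annotation places the protein-coding genes FTCD, SPATC1L, LSS, MCM3AP and C21orf58 on the minus strand and YBEY on the plus strand. The minus strand of the window held 1 TIA1 peak, chr21:47636413-47636433 with a log2 fold of 3.14, and 1 RBFOX2 peak, chr21:47705886-47705978 with 3.10. Neither was inside a member's span. The 4 genes held 53.4% of the 88 TIA1 peaks on chromosome 21 and 20.0% of its 60 RBFOX2 peaks.

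Against the other 4 windows with most TIA1 peaks, this one held 48 where the next held 34 (chromosome 8), 33 (chromosome 1), 28 and 25 (both chromosome 16). Narrow peaks were common in several of them. The median width was 13.5 bases here, 18.5 on chromosome 8, 25 on chromosome 1, and 40 and 13 in the chromosome 16 windows. Close neighbours were common in all 5: another TIA1 peak lay within 1 kb for 83.3% of peaks here. The share was 82.4% on chromosome 8, 72.7% on chromosome 1, and 75% and 88% on chromosome 16. With peaks joined within 50 bases the lead shrank to 27 sites against 24 on chromosome 1 and 21 on chromosome 8. The share that overlapped an RBFOX2 peak was 4.17% here, 5.88% on chromosome 8, 18.2% on chromosome 1, and 25% and 4% on chromosome 16, so a low share was not particular to this window. A log2 fold of 4 or more was reached by 6 of 48 peaks here, and by 1 of 34, 1 of 33, 0 of 28 and 1 of 25 in the others. The 6 are 12.8% of the TIA1 peaks of the 4 genes, not far from the list's 9.21%. Of the 6, 4 were under 20 bases wide, as were 27 of all 47 peaks of these genes. The place of the window also depended on where its edges fall: with edges moved by 500 kb, COL6A1 and COL6A2 are parted, and the window with COL6A1 held 29 peaks and ranked 3, where the first held 35.

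**Figure D5:**
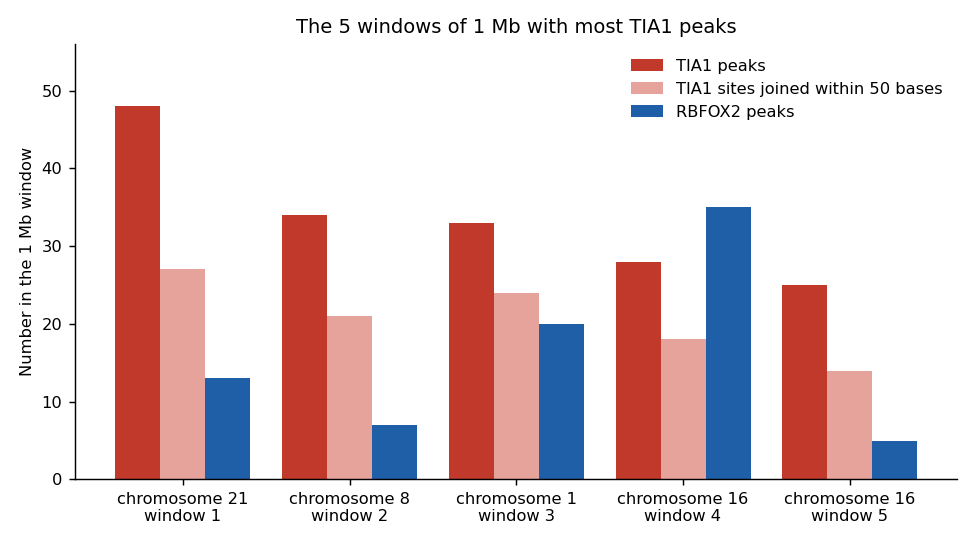
Number of TIA1 peaks, of TIA1 sites after joining peaks within 50 bases, and of RBFOX2 peaks in each of the 5 windows of 1 Mb with most TIA1 peaks, in order of TIA1 peaks from the left. The window of the 4 genes leads with 48 peaks and 27 sites, and the 4th window, on chromosome 16, has the most RBFOX2 peaks (35).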

How the data were processed

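The authors deposited 1 headerless peak list per protein, in hg19, joined over 2 replicates. The submitters' processing notes name STAR 2.4.0i, SAMtools 1.6, cutadapt 1.14 and UMI-tools 1.0.0. Which program called the peaks is not stated there. The deposited −log10 p (3.01 to 400) and the deposited log2 fold (never under 3.00) were identified from their ranges. Every value per peak is the authors' own, and peaks below these limits are not seen. The labels call the replicates both biological and technical.

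Members and lists were chosen with earlier results of these data known. Coordinates were written 1-based. Peaks sharing at least 1 base on the strand overlapped. Peaks named were, per gene and protein, the 3 highest by −log10 p, the 2 highest by fold, the first and last, those overlapping the other protein, all in genes with 5 or fewer, and sites of 3 or more; others named (peaks of lowest fold, partners beside a named peak) were chosen after their values were seen. GENCODE 29 and the RefSeq tables are GRCh38, so their coordinates were not used: exons under peaks, the sequence of peaks and other collagen, centrosome or DIP2 genes were not analysed here. Python 3.11.15, pandas 2.3.3 and scipy 1.17.1 were used, and the counting was tested on planted peaks.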

Additional observations from a re-analysis of the deposited data

How the results depend on the processing

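Of 56 alternative values of the main results, 34 stayed within 1.5 times (counts), the interval (shares) or 1 SD over peaks (medians), or were identical (window ranks). A log2 fold of at least 4 left 6 TIA1 peaks at 6 sites (2 in COL6A1, 4 in COL6A2, 0 in PCNT and DIP2A) and 0 RBFOX2 peaks. With no RBFOX2 peak left, the overlap could only be 0%, where the list's share was 9.12%. A −log10 p of at least 5 left 6 RBFOX2 peaks. Joining within 50 bases left 26 TIA1 peaks, with 12 in COL6A1, 1 in DIP2A and 27 in the window. The minus strand of the spans, which the 56 include, held 0 peaks of either list. An RBFOX2 peak within 1 kb was found for 31.9% of TIA1 peaks, and moving the windows by 500 kb gave 29 peaks and rank 3. The stricter limits and joining leave fewer peaks by construction. Midpoints and spans widened by 1 kb changed no count. Overlap stayed between 2.44 and 8.51% under the other 4 settings, below the list's share under each. No paired analysis was possible because a peak has 1 value for its 2 replicates together, which also kept any replicate from being left out. Depth is not known, so a gene without peaks cannot be read as unbound.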
